A study of Homo sapiens with 12 samples.

Results

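Desmosomes are cell junctions that tie the intermediate filaments of neighbouring epithelial cells together. The transcripts of 10 desmosome genes were followed here, chosen by symbol: the cadherins DSG2, DSG3, DSC2 and DSC3, the armadillo proteins JUP, PKP1, PKP2 and PKP3, and the plakins DSP and PPL. All 10 were found among the 58037 genes of the count table, and each matched 1 Ensembl identifier. Gene expression was measured by RNA sequencing of polyadenylated RNA in BT-549 and SUM149, both established lines of triple-negative breast cancer. The 4 groups, of 3 libraries each, were BT-549 MUC1shRNA, BT-549 CshRNA, SUM149 MUC1shRNA and SUM149 CshRNA. MUC1shRNA is a stably expressed short hairpin RNA against MUC1-C, the transmembrane subunit of the mucin MUC1, and CshRNA is a control hairpin. BT-549 was grown in RPMI1640 and SUM149 in Ham's F-12 with hydrocortisone, both with serum and insulin. Line, medium and any library batch that follows the line therefore cannot be told apart. The labels call the BT-549 controls vector in one place and CshRNA in another, and they do not say whether the 3 sets of a group came from separate introductions of the hairpin. The p-values therefore measure only the spread between these cultures.

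In a desmosome, desmogleins (DSG) and desmocollins (DSC) reach across the gap between cells and bind those of the next cell. Their tails bind plakoglobin (JUP) and the plakophilins (PKP), and these bind desmoplakin (DSP), which holds the keratin filaments. Desmosomes are abundant in skin, heart muscle and other tissues under mechanical load, and breast epithelium carries them as well. Plakoglobin is also a relative of beta-catenin and takes part in adherens junctions. Periplakin (PPL) belongs to the plakin family like DSP and is best known from the cornified envelope of stratified epithelium.

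Levels are given as CPM, counts scaled to a common library size on totals adjusted by TMM, a method that limits the weight of genes with very different levels. Depth was 16373893 to 21248768 counts per library in BT-549 MUC1shRNA, 16332364 to 20745835 in BT-549 CshRNA, 7931614 to 9623924 in SUM149 MUC1shRNA and 19392422 to 24140623 in SUM149 CshRNA. MUC1 had 3.60, 6.01 and 4.28 CPM in BT-549 MUC1shRNA libraries, against 51.9, 53.6 and 54.2 CPM in BT-549 CshRNA libraries. In SUM149 it had 1.06, 0.334 and 0.481 CPM with MUC1shRNA, against 16.4, 16.6 and 12.1 CPM with CshRNA. The summed level of 7 epithelial markers was 792 to 1030 CPM in BT-549 MUC1shRNA, 318 to 369 in BT-549 CshRNA, 2047 to 2138 in SUM149 MUC1shRNA and 2095 to 2130 in SUM149 CshRNA. The BT-549 gap between arms was that of KRT8 (282 against 44.5 CPM) and KRT18 (655 against 290 CPM), while CDH1 did not pass the test and EPCAM, KRT19, ESRP1 and CLDN7 had too few counts to be tested there. EPCAM, an epithelial surface protein, had 0 to 1 counts in BT-549 MUC1shRNA libraries and 1 to 12 in BT-549 CshRNA libraries, so BT-549 all but lacks this defining marker. The summed level of 6 mesenchymal markers was 5624 to 6697, 4630 to 5283, 3046 to 3427 and 839 to 944 CPM in the same order of groups. The SUM149 gap was that of FN1, fibronectin (3100 CPM with MUC1shRNA, against 766 CPM with CshRNA), while VIM (32.2 against 31.4 CPM) and CDH2 (52.6 against 50.9 CPM) did not pass the test and TWIST1 fell (19.3 against 27.6 CPM). ZEB1 also rose in SUM149, at a low level (0.722 against 0.116 CPM). That of 6 leukocyte markers was at most 5.06 CPM in every library. The sum of 6 fibroblast markers was 3436 to 3577, 2627 to 2901, 26.8 to 29.7 and 33.2 to 42.9 CPM in that order. In BT-549 it was that of the collagen genes COL1A1, COL1A2 and COL3A1. There DCN and PDGFRB averaged at most 0.152 CPM and LUM had 0 counts. The sum of 5 endothelial markers was at most 0.782 CPM in BT-549, 9.73 to 11.4 CPM in SUM149 MUC1shRNA and 27.1 to 30.7 CPM in SUM149 CshRNA. In SUM149 it was nearly all PECAM1, which averaged 9.71 CPM with MUC1shRNA and 28.4 CPM with CshRNA. The estrogen and progesterone receptor genes ESR1 and PGR had at most 3 counts in any BT-549 library, and ESR1 had 40 to 56 counts in each SUM149 library. ERBB2, the other receptor gene among the markers, was expressed in every group. It averaged 46.5 CPM in BT-549 MUC1shRNA, 48.4 in BT-549 CshRNA, 36.5 in SUM149 MUC1shRNA and 58.5 in SUM149 CshRNA.

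The first question was how much of each junction component the lines carried. Every one of the 10 genes was lower in BT-549 than in SUM149, in both hairpin arms. In bulk RNA, fewer cells that express a gene and less RNA per cell cannot be told apart. Among CshRNA libraries 10 of 10 passed the test as lower, where 43.5% of the 15649 genes tested did and 83.0% passed in either direction. Among MUC1shRNA libraries 10 of 10 did so too, where 40.8% of genes were lower and 79.7% passed in either direction. The median log2 difference over the members was -6.22 with CshRNA and -4.13 with MUC1shRNA, against -0.07 and -0.03 over all genes tested. These medians are the same with DSG3 and PKP1 at their bounds, since both genes lie at the low end either way. DSG3 and PKP1 passed the low-count filter only through SUM149, so they had to differ. No member was called higher by edgeR, at an adjusted or an unadjusted p, or by DESeq2 or limma-voom. The plot of levels by library shows the gap between the lines for each gene.

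**Figure D1:**
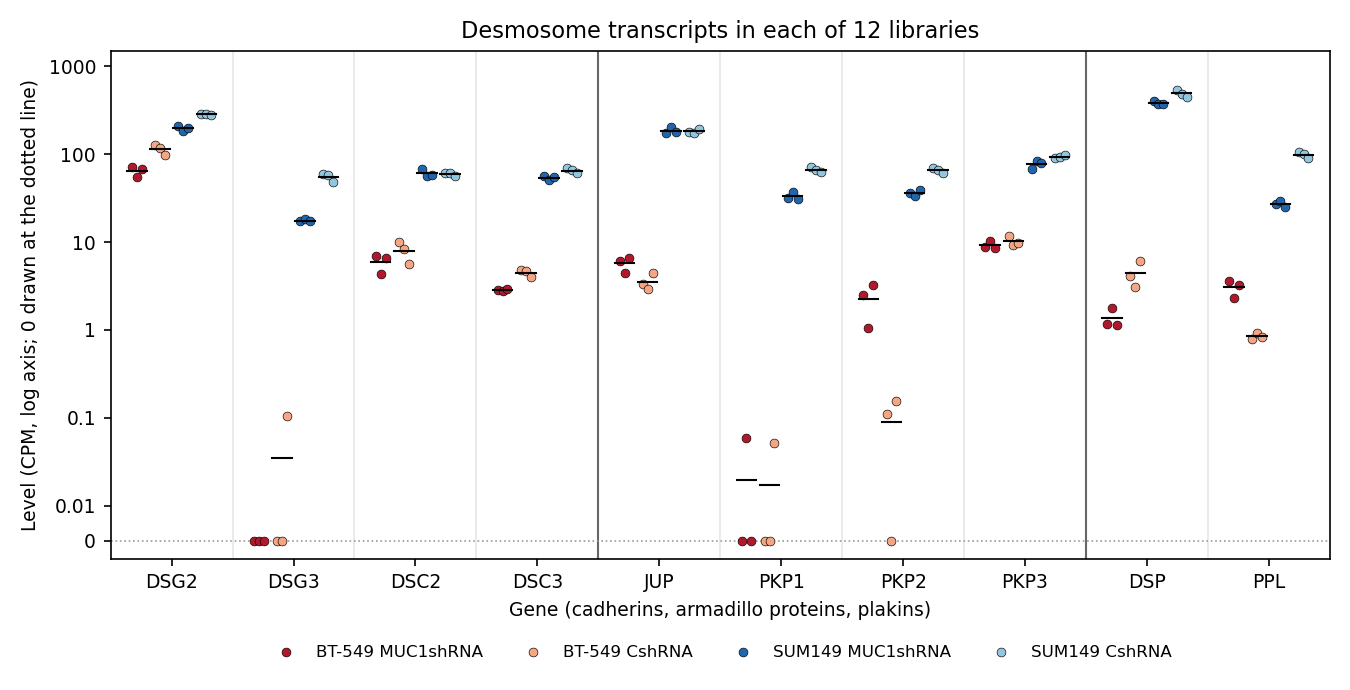
Level in CPM (vertical axis, log scale, with 0 drawn at the dotted line) of the 10 desmosome genes in each of 12 libraries. Points are libraries, and short lines are means of 3. DSG2 has the narrowest gap between the lines, while DSG3 and PKP1 have 0 to 2 counts in each BT-549 library.

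The cadherins differed among themselves in how far apart the lines lay. DSG2 (ENSG00000046604.12, GRCh38 chromosome 18, 31498043 to 31549008, plus strand) is the desmoglein of simple epithelium and of heart muscle. It had 128, 117 and 96.8 CPM in BT-549 CshRNA libraries, against 289, 286 and 281 CPM in SUM149 CshRNA libraries. The log2 difference was -1.33 (SE 0.10), the smallest in size among the 10 members in this arm. Its adjusted p was 6.30e-09 (Benjamini-Hochberg, quasi-likelihood test of edgeR, as for every adjusted p given). DSC2 (ENSG00000134755.14, chromosome 18, 31058840 to 31102522, minus strand), the most widely expressed desmocollin, was lower in BT-549 by a log2 difference of -2.91 (SE 0.16). DSC3 (ENSG00000134762.16, chromosome 18, 30990008 to 31042815, minus strand), a desmocollin of the basal layers of stratified epithelium, differed by -3.87 (SE 0.09). DSG3 (ENSG00000134757.4, chromosome 18, 31447795 to 31478702, plus strand), a desmoglein of basal keratinocytes and the main autoantigen of pemphigus vulgaris, had 2 counts in all over the BT-549 CshRNA libraries and 3869 over the SUM149 CshRNA libraries. This is a 1457-fold lower level, with an exact interval from 403-fold to 12037-fold that covers counting error only. In the MUC1shRNA arm DSG3 had 0 counts in BT-549 and 488 in SUM149, at least 300-fold lower when a floor of 3 counts over the group is set for BT-549.

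These 4 genes lie in 1 cluster of 7 cadherin genes that spans 559 kb on chromosome 18, in the order DSC3, DSC2, DSC1, DSG1, DSG4, DSG3, DSG2. The 3 genes in its middle, which are no members here, had 17, 4 and 2 counts over all 12 libraries for DSC1, DSG1 and DSG4. DSG1 and DSC1 are known from the upper layers of epidermis and DSG4 from hair follicles. DSG3 and DSG2 are neighbours, 19.3 kb apart on the same strand, and per kb of exon DSG3 averaged 0.00629 CPM where DSG2 averaged 18.4 CPM in BT-549 CshRNA libraries.

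Of the armadillo genes, JUP (ENSG00000173801.16, chromosome 17, 41754604 to 41786931, minus strand) had 3.30, 2.92 and 4.43 CPM in BT-549 CshRNA libraries, against 176, 176 and 195 CPM in SUM149 CshRNA libraries, a log2 difference of -5.66 (SE 0.13). PKP3 (ENSG00000184363.9, chromosome 11, 392614 to 404908, plus strand), the plakophilin found in most epithelial layers, differed by -3.20 (SE 0.10). PKP1 (ENSG00000081277.12, chromosome 1, 201283452 to 201332993, plus strand), a plakophilin of stratified epithelium, had 1 count over the BT-549 CshRNA libraries and 4631 over the SUM149 CshRNA libraries. The ratio is 3488-fold lower, with a counting interval from 626-fold to 137813-fold. PKP2 (ENSG00000057294.14, chromosome 12, 32790745 to 32896840, minus strand), the plakophilin of heart muscle and simple epithelium, had 5 counts in BT-549 CshRNA and 4562 in SUM149 CshRNA, 687-fold lower with an interval from 294-fold to 2118-fold. PKP1 and PKP2 were thus nearly absent from control BT-549 cells at this depth, while PKP3 was not.

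Both plakins were far lower in BT-549. DSP (ENSG00000096696.13, chromosome 6, 7541575 to 7586717, plus strand) had 4.08, 3.12 and 6.05 CPM in BT-549 CshRNA libraries, against 539, 486 and 452 CPM in SUM149 CshRNA libraries, a log2 difference of -6.77 (SE 0.15, edgeR adjusted p = 3.98e-15). PPL (ENSG00000118898.15, chromosome 16, 4882507 to 4960741, minus strand) had 0.783, 0.928 and 0.835 CPM, against 105, 99.6 and 91.3 CPM, a log2 difference of -6.86 (SE 0.15). The groups of the 2 lines did not overlap for any of the 10 members in either arm, where 84.0% of all genes tested with CshRNA and 81.5% with MUC1shRNA did not. For DSG3 and PKP1, which passed the low-count filter only through SUM149, this was fixed in advance.

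Levels of different genes can be compared only per length, here as CPM per kb of the gene's merged exons. The longest coding transcripts of JUP, DSP, DSG2 and PKP2 have 3497, 9796, 5831 and 4302 bases. Their merged exons have 4942, 10093, 6190 and 7043. A shorter length gives a higher level, so the places of JUP and PKP2 beside the others depend on this choice. The orders below hold for merged exons only. In BT-549 CshRNA cells DSG2 led with 18.4 ± 2.53 CPM per kb (SD, n = 3), followed by PKP3 with 2.69 ± 0.343, each apart from its neighbour. JUP with 0.718 ± 0.160, DSC2 with 0.639 ± 0.181, DSC3 with 0.634 ± 0.0628 and DSP with 0.438 ± 0.148 came next, and the ranges of neighbours among these 4 overlapped. PPL followed with 0.110 ± 0.00955, apart from DSP, and PKP2, DSG3 and PKP1 were at or near 0. In SUM149 CshRNA cells DSP led with 48.8 ± 4.33 and DSG2 had 46.1 ± 0.673, which overlapped. JUP followed with 36.9 ± 2.21, PKP3 with 24.7 ± 1.27 and PPL with 12.8 ± 0.886. PKP1 with 10.7 ± 0.742, DSG3 with 10.1 ± 1.12, PKP2 with 9.33 ± 0.608 and DSC3 with 9.22 ± 0.653 lay within each other's ranges from neighbour to neighbour, and DSC2 was lowest with 4.77 ± 0.186. SUM149 control cells thus carried the linker DSP and the cadherin DSG2 at overlapping levels, while in BT-549 control cells all DSG2 libraries lay above all DSP libraries. With MUC1shRNA the order in BT-549 was DSG2 (10.5 ± 1.45), PKP3 (2.42 ± 0.238) and JUP (1.15 ± 0.223), each apart from the next. DSC2 (0.479 ± 0.114), DSC3 (0.406 ± 0.0122), PPL (0.397 ± 0.0896), PKP2 (0.319 ± 0.155) and DSP (0.135 ± 0.0349) followed, each overlapping its neighbour. In SUM149 MUC1shRNA cells DSP (37.8 ± 2.09) and JUP (37.2 ± 3.34) overlapped at the top, above DSG2 (31.9 ± 1.96), PKP3 (20.2 ± 2.03) and DSC3 (7.67 ± 0.390), which were apart. PKP1 (5.32 ± 0.548), PKP2 (5.14 ± 0.371) and DSC2 (4.84 ± 0.544) overlapped, as did PPL (3.53 ± 0.309) and DSG3 (3.17 ± 0.0963) at the low end.

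Summed per length by role, the cadherins had 11.3 ± 1.58 CPM per kb in BT-549 MUC1shRNA and 19.7 ± 2.76 in BT-549 CshRNA, and 47.5 ± 2.69 in SUM149 MUC1shRNA and 70.2 ± 2.61 in SUM149 CshRNA (SD, n = 3 each). The armadillo genes had 3.90 ± 0.138 and 3.42 ± 0.382 in BT-549, and 67.8 ± 5.42 and 81.7 ± 2.30 in SUM149, in the same order of arms. The plakins had 0.532 ± 0.0589 and 0.548 ± 0.144 in BT-549, and 41.4 ± 2.10 and 61.6 ± 5.19 in SUM149. In SUM149 the MUC1shRNA libraries lay below the CshRNA libraries for each of the 3 sums. In BT-549 this held for the cadherin sum, the armadillo sums lay higher with MUC1shRNA by a narrow gap, and the plakin sums of both arms overlapped.

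The second comparison asked what changed in BT-549 with MUC1shRNA. Desmoplakin and 2 cadherins fell, while PKP2, PPL and JUP rose. Of the 10 members, 8 had enough counts to be tested, and PKP2 had them only through the MUC1shRNA arm. Of these 8, 3 were called higher and 3 lower, where 16.8% of the 13200 genes tested were called higher, 16.5% lower and 33.3% in either direction. For 6 of these 8 the arms lay apart, as they did for 47.0% of all genes tested. The median log2 fold change of the 8 was -0.28, against -0.01 over all genes.

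DSG2 had 72.0, 54.7 and 67.6 CPM in BT-549 MUC1shRNA libraries, against 128, 117 and 96.8 CPM in BT-549 CshRNA libraries. The highest MUC1shRNA library stayed below the lowest CshRNA library, and the log2 fold change was -0.82 (SE 0.12, edgeR adjusted p = 0.000753). DSC3 had 2.88, 2.77 and 2.94 CPM, against 4.76, 4.71 and 3.96 CPM, a log2 change of -0.64 (SE 0.15, adjusted p = 0.00964 by edgeR). DSC2 had 6.99, 4.36 and 6.61 CPM with MUC1shRNA, against 10.1, 8.29 and 5.58 CPM with CshRNA. Its arms overlapped and it did not pass the test, with a log2 change of -0.41 (SE 0.23, adjusted p = 0.203 by edgeR). Without CshRNA 3 it passed, at -0.62 (edgeR adjusted p = 0.0370). DSG3 had 0 counts in each MUC1shRNA library, against 0, 0 and 2 in the CshRNA libraries, and was not tested.

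DSP, the link to keratin, had 1.18, 1.77 and 1.14 CPM in BT-549 MUC1shRNA libraries, against 4.08, 3.12 and 6.05 CPM in BT-549 CshRNA libraries. These levels rest on 23, 30 and 17 counts, against 73, 47 and 116. The arms did not overlap, and the log2 fold change was -1.71 (SE 0.29, edgeR adjusted p = 0.00182). CshRNA 3, which had the highest DSP level, also held more counts of genes that BT-549 otherwise hardly expresses. In that library 31 genes, averaging 100 CPM or more in SUM149 with a BT-549 median of at most 0.5 CPM, summed to 0.187% of their SUM149 CshRNA level, against 0.0569% to 0.0669% in the other 5 BT-549 libraries. DSP there was at 1.23% of its SUM149 CshRNA mean, against 0.829% and 0.632% in CshRNA 1 and 2. The part of these counts in the DSP result was not tested beyond leaving libraries out. Over all the fits that left out 1 library, CshRNA 3 among them, the log2 fold change ran from -1.94 to -1.40 and the largest adjusted p was 0.0119 (edgeR).

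PKP2 had 48, 18 and 48 counts in BT-549 MUC1shRNA libraries, against 2, 0 and 3 in BT-549 CshRNA libraries. In CPM these are 2.47, 1.06 and 3.21 with MUC1shRNA, against 0.112, 0 and 0.156 with CshRNA. The pooled counts, 114 against 5, give a level 23.1-fold higher with MUC1shRNA, with a counting interval from 9.63-fold to 72.6-fold. The edgeR log2 fold change was 4.44 (SE 0.65, adjusted p = 0.000840), but PKP2 passed the low-count filter only through the arm where it was high, so it had to differ and its call supports nothing further. Even after this rise, PKP2 in BT-549 MUC1shRNA stood at a log2 difference of -4.02 (SE 0.21) from SUM149 MUC1shRNA.

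PPL had 71, 39 and 48 counts in BT-549 MUC1shRNA libraries, against 14, 14 and 16 in BT-549 CshRNA libraries, or 3.65, 2.30 and 3.21 CPM against 0.783, 0.928 and 0.835 CPM. Every MUC1shRNA library lay above every CshRNA library, with a log2 change of 1.85 (SE 0.25, adjusted p = 0.000537 by edgeR). JUP had 6.01, 4.48 and 6.61 CPM with MUC1shRNA, against 3.30, 2.92 and 4.43 CPM with CshRNA. The arms lay close, and the log2 fold change was 0.66 (SE 0.20, edgeR adjusted p = 0.0299). The JUP call was lost without MUC1shRNA 1 (edgeR adjusted p = 0.0998), MUC1shRNA 3 (0.107), CshRNA 1 (0.103) or CshRNA 2 (0.0826). PKP3 had 8.84, 10.2 and 8.49 CPM, against 11.6, 9.15 and 9.75 CPM, and did not pass the test (log2 fold change -0.15, SE 0.13, 95% interval -0.40 to 0.09). PKP1 had 0, 1 and 0 counts, against 0, 0 and 1, and was not tested.

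The third comparison asked the same in SUM149. No desmosome gene was called higher and 8 of 10 fell, among them both plakins, 3 of 4 cadherins and all 3 plakophilins. Of the 14178 genes tested, 28.9% were called lower, 27.6% higher and 56.5% in either direction. The median log2 fold change of the 10 was -0.44, against -0.03 over all genes. For 8 of 10 members the arms lay apart, where 62.6% of all genes tested did. The count of 8 lower and 0 higher was the same at an unadjusted p, with DESeq2 and with limma-voom. The MUC1shRNA arm was the shallower one, and among the mesenchymal markers FN1 and, at a low level, ZEB1 were higher in it, as given above. The part of FN1 and ZEB1 in these results was not tested. With every library thinned to the same total, 8 members were still called.

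**Figure D2:**
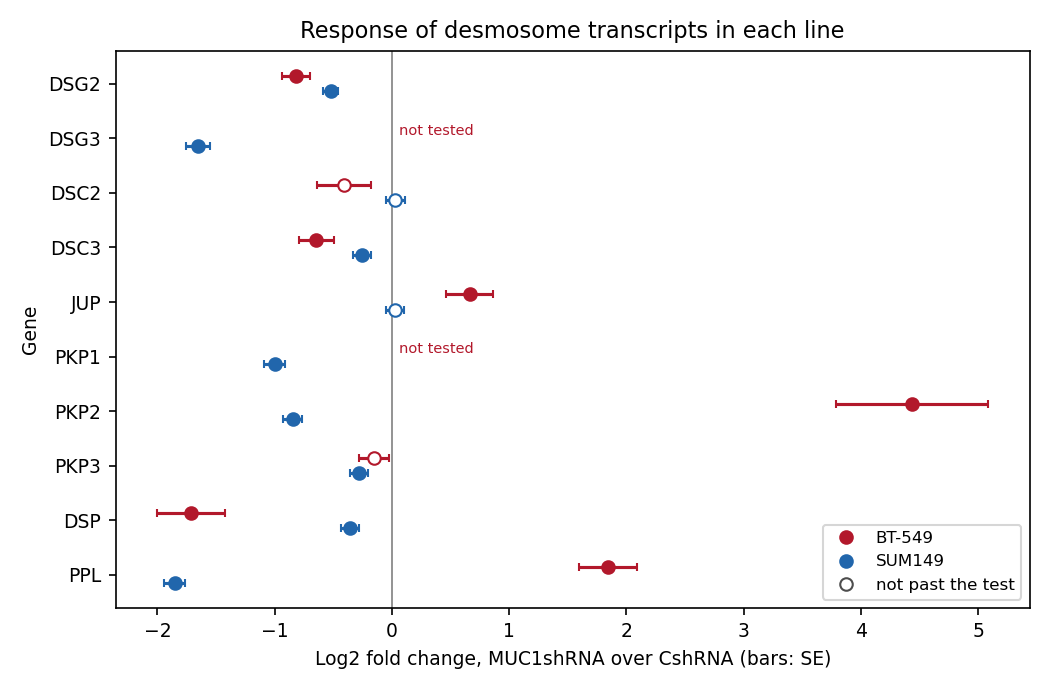
Log2 fold change of MUC1shRNA over CshRNA (horizontal axis) with its SE for each desmosome gene (vertical axis), in BT-549 and SUM149. Filled points passed edgeR's test at an adjusted p below 0.05 and open points did not. PPL and PKP2 lie right of 0 in BT-549 and left of 0 in SUM149.

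The deepest fall was that of PPL, which had 27.1, 29.5 and 24.7 CPM in SUM149 MUC1shRNA libraries, against 105, 99.6 and 91.3 CPM in SUM149 CshRNA libraries. Its log2 fold change was -1.85 (SE 0.09, edgeR adjusted p = 2.75e-09). DSP had 406, 369 and 370 CPM with MUC1shRNA, against 539, 486 and 452 CPM with CshRNA, a smaller log2 change of -0.35 (SE 0.08, adjusted p = 0.00127 by edgeR). Per kb, PPL thus had 3.53 ± 0.309 with MUC1shRNA and 12.8 ± 0.886 with CshRNA, beside 37.8 ± 2.09 and 48.8 ± 4.33 for DSP in the same order of arms (SD, n = 3 each).

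Among the cadherins, DSG3 had 17.2, 18.1 and 17.2 CPM in SUM149 MUC1shRNA libraries, against 60.1, 58.3 and 48.6 CPM in SUM149 CshRNA libraries, a log2 change of -1.66 (SE 0.10, adjusted p = 2.50e-08 by edgeR). DSG2 had 208, 184 and 200 CPM, against 289, 286 and 281 CPM, a log2 change of -0.52 (SE 0.06, adjusted p = 1.56e-05 by edgeR). DSC3 had 56.0, 51.0 and 55.5 CPM, against 69.4, 65.5 and 60.2 CPM, a log2 change of -0.25 (SE 0.08, adjusted p = 0.0129 by edgeR). The DSC3 call was lost without CshRNA 1 (edgeR adjusted p = 0.0597) or without MUC1shRNA 2 (0.0763). DSC2 had 68.2, 55.9 and 57.2 CPM, against 61.3, 60.7 and 57.0 CPM, and the arms overlapped. Its log2 fold change of 0.03 had a 95% interval from -0.13 to 0.19.

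The plakophilins fell by different amounts. PKP1 had 31.4, 37.0 and 30.8 CPM in SUM149 MUC1shRNA libraries, against 71.5, 66.1 and 62.3 CPM in SUM149 CshRNA libraries, which is 2.00-fold lower (adjusted p = 7.99e-07 by edgeR). PKP2 had 35.7, 33.8 and 39.0 CPM, against 69.7, 66.2 and 61.2 CPM, a log2 change of -0.85 (SE 0.08, adjusted p = 1.70e-06 by edgeR). PKP3 had 67.8, 82.6 and 78.7 CPM, against 89.7, 92.3 and 99.0 CPM, a log2 change of -0.28 (SE 0.08, adjusted p = 0.00852 by edgeR). JUP, their relative, had 172, 203 and 177 CPM, against 176, 176 and 195 CPM, with overlapping arms. Its log2 fold change of 0.03 had a 95% interval from -0.12 to 0.17.

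Because paralogs can stand in for each other in the junction, their shares within a family were also taken, on levels per exon length. Shares within a library do not change with the scaling between libraries. In SUM149, DSG3 made up 9.08% ± 0.768 of DSG2 and DSG3 together with MUC1shRNA and 17.9% ± 1.46 with CshRNA (SD, n = 3 each, exact permutation test, two-sided, p = 0.1). This p is the smallest that 3 libraries against 3 allow, so no share can pass 0.05. DSC3 made up 61.4% ± 2.01 of the desmocollins with MUC1shRNA and 65.9% ± 0.794 with CshRNA, also without overlap (exact p = 0.1). Of the 3 plakophilins, PKP3 took 65.8% ± 1.65 with MUC1shRNA and 55.2% ± 2.89 with CshRNA. PKP1 took 17.4% ± 1.32 and 24.0% ± 1.58, and PKP2 16.9% ± 1.83 and 20.8% ± 1.33, in the same order of arms, each without overlap (exact p = 0.1 each). In these SUM149 libraries the shares of DSG2, DSC2 and PKP3 were thus higher with MUC1shRNA. Those of DSG3, DSC3, PKP1 and PKP2 were lower, and none of these differences can pass 0.05.

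**Figure D3:**
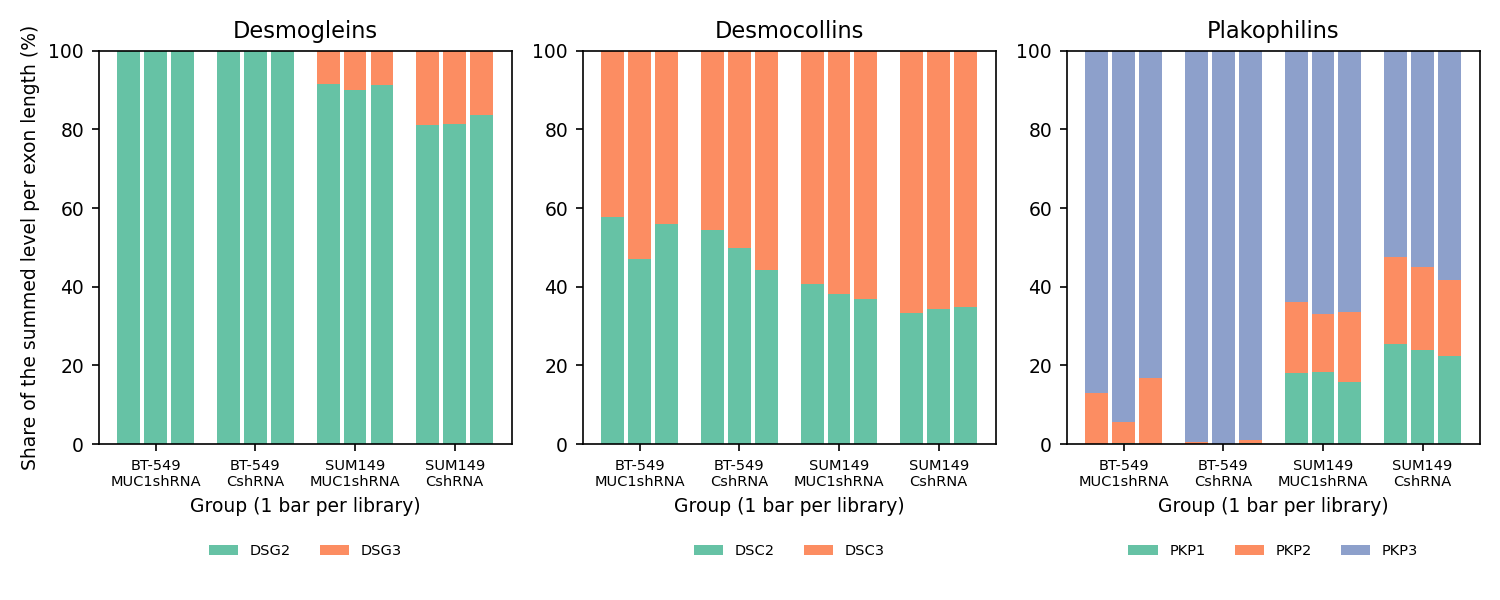
Share (%, vertical axis) of each paralog in its family's summed level per exon length, 1 bar per library (horizontal axis) in 4 groups. In SUM149 the DSG3 share is 9.08% with MUC1shRNA and 17.9% with CshRNA, and in BT-549 the PKP2 share is 11.7% and 0.456%.

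In BT-549, DSG2 was nearly the only desmoglein in both arms. PKP2 took 11.7% ± 5.91 of the plakophilins with MUC1shRNA and 0.456% ± 0.429 with CshRNA, without overlap (SD, n = 3 each, exact permutation p = 0.1). PKP3 took 88.1% ± 5.73 with MUC1shRNA and 99.4% ± 0.589 with CshRNA (exact p = 0.1). DSC3 took 46.4% ± 5.75 of the desmocollins with MUC1shRNA and 50.5% ± 5.09 with CshRNA, which overlapped (exact p = 0.4). In these libraries the PKP2 share was thus higher with MUC1shRNA in BT-549 and lower with it in SUM149. The BT-549 share with CshRNA rests on 5 PKP2 counts. In each line the exact permutation p of 0.1 is the smallest that 3 libraries against 3 allow, so the test cannot decide either difference.

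The difference between the responses was tested in 1 model over all 12 libraries, as the log2 fold change in BT-549 minus that in SUM149. Of the members, 3 passed as higher and 1 as lower in BT-549, where 19.5% of the 15649 genes tested passed as higher, 20.1% as lower and 39.6% in either direction. PPL rose in BT-549 and fell in SUM149, and its responses differed by 3.72 (SE 0.23, edgeR adjusted p = 2.06e-08). PKP2 did the same, with a difference of 5.29 (SE 0.55, edgeR adjusted p = 3.21e-06), which rests on 5 counts in BT-549 CshRNA. DSP fell in both lines and further in BT-549 on the log2 scale, with a difference of -1.35 (SE 0.28, edgeR adjusted p = 0.00132). JUP differed by 0.65 (SE 0.20, edgeR adjusted p = 0.0172). The JUP call was lost in 4 fits that left out a library: BT-549 MUC1shRNA 1 (edgeR adjusted p = 0.0623), MUC1shRNA 3 (0.0683), CshRNA 1 (0.0659) or CshRNA 2 (0.0663). It was also lost when every library was thinned to the smallest total (0.138).

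For DSG2 (-0.28, edgeR adjusted p = 0.135), DSC2 (-0.42, 0.194), DSC3 (-0.37, 0.0577) and PKP3 (0.14, 0.486) the difference did not pass. Without BT-549 CshRNA 3, DSG2, DSC2 and DSC3 passed as well, with differences of -0.39, -0.64 and -0.46, and 7 members were called. For DSC3 the test was also passed without SUM149 CshRNA 1 (edgeR adjusted p = 0.0440) or SUM149 MUC1shRNA 2 (0.0427), and with RLE scaling (0.0478). DSG2 also passed without 3 libraries together, BT-549 MUC1shRNA 2, BT-549 CshRNA 3 and SUM149 CshRNA 3 (edgeR adjusted p = 0.0311). For DSG3 and PKP1 there were too few counts in BT-549 to give a response.

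The promoters of the members are shown because regulators of epithelial genes were among the genes measured. ZEB1, ZEB2 and SNAI2 are repressors known to bind the E-box letters CACCTG in promoters of junction genes. In RefSeq's promoter windows (GRCh38.p14, 250 bases before to 50 after each start), 9 windows of 7 members were found, those of DSP, DSG2, DSG3, DSC2, DSC3, PKP1 and JUP, with 2 starts each for DSC2 and JUP. On either strand, CACCTG (read as CAGGTG from the other side) was in 4 of the 9 windows, against 20.6% of 35116 windows of the same length. The GC content of the members' windows ran from 44% (DSG3) to 77% (DSP), and all but that of DSG3 lay above the median of 58.67% over all windows, so the 2 shares are not matched for base composition. The 4 windows belong to DSP, DSG2 and 1 start each of DSC2 and JUP. The lines below give each match with its surroundings on the gene's strand, 5′ to 3′, with the E-box in capitals.
DSP, chr6:7541484-7541507, plus strand, upstream of the annotated exons: cggcgggcgCAGGTGgggaggggc
DSP, chr6:7541577-7541600, plus strand, in an annotated exon: gaaaccggcCAGGTGtggcctagg
DSG2, chr18:31497936-31497959, plus strand, upstream of the annotated exons: tcacggtccCAGGTGcgagtgcga
DSG2, chr18:31498052-31498075, plus strand, in an annotated exon: cggcggccaCACCTGgagccgcgc
DSC2, chr18:31102563-31102586, minus strand, upstream of the annotated exons: actttctgtCAGGTGggcctcagg
JUP, chr17:41786016-41786039, minus strand, in an annotated exon: ctctggcccCACCTGccgagcagg
JUP, chr17:41786005-41786028, minus strand, in an annotated exon: cctgccgagCAGGTGagcgcacgg

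The letters AACCGGTT, bound by grainyhead-like factors, were in 0 of the 9 windows and 0.134% of all windows. TGAGTCA, bound by AP-1, was in 0 of 9 and 4.95% of all, both strands searched for each. Matching letters are a description and do not show binding. ZEB1 had 53.3 ± 3.85 CPM in BT-549 MUC1shRNA and 59.3 ± 4.21 in BT-549 CshRNA, and 0.722 ± 0.0890 in SUM149 MUC1shRNA and 0.116 ± 0.0253 in SUM149 CshRNA (SD, n = 3 each). ZEB2 had 29.5 ± 0.404 and 54.6 ± 4.64 CPM in BT-549, and 3.17 ± 0.726 and 1.01 ± 0.151 in SUM149, in the same order of arms. SNAI2 had 46.7 ± 13.5 and 55.6 ± 17.6 CPM in BT-549, and 92.8 ± 5.27 and 44.8 ± 1.31 in SUM149. For SNAI1 these were 1.08 ± 0.340 and 1.53 ± 0.956, and 13.4 ± 0.495 and 15.2 ± 1.23 CPM. Compared with SUM149, ZEB1 and ZEB2 were thus higher in BT-549 in both arms, and SNAI1 was lower. SNAI2 was lower there with MUC1shRNA and did not pass the test with CshRNA. The part of these regulators in the gap between the lines was not tested.

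Other genes of the junction and its partners were read from 7 further lists, whose counts stand beside the 33.3% of all genes called in BT-549 and the 56.5% called in SUM149. Nothing particular to a list is read from its count. Of 7 other desmosome genes, 2 were tested in BT-549 and both rose, and of 3 tested in SUM149, 2 rose and EVPL, a plakin that pairs with PPL in the cornified envelope, fell (log2 fold change -0.38, SE 0.11, edgeR adjusted p = 0.00911). PERP, a small membrane protein of desmosomes, had 46.1 ± 1.57 CPM in BT-549 MUC1shRNA and 10.4 ± 1.51 in BT-549 CshRNA (SD, n = 3 each), which is a log2 change of 2.14 (SE 0.10, adjusted p = 1.08e-06 by edgeR). In SUM149 its log2 fold change was 0.23 (SE 0.06, edgeR adjusted p = 0.00768). PKP4, a relative of the plakophilins also found at adherens junctions, rose by 0.46 (SE 0.06) in BT-549 and by 0.43 (SE 0.06) in SUM149 on the log2 scale. CDSN, DSG1, DSG4 and DSC1 were not tested in either line.

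Keratins are the filaments that desmosomes anchor. Of 14 intermediate filament genes, 6 of 9 tested rose and the other 3 did not pass in BT-549, and 4 of 14 rose and 6 fell in SUM149. KRT8, a keratin of simple epithelium, had 282 ± 29.9 CPM in BT-549 MUC1shRNA and 44.5 ± 1.19 in BT-549 CshRNA (SD, n = 3 each), which is a log2 change of 2.66 (SE 0.08). KRT18, its partner, rose by 1.17 (SE 0.11), and the 2 genes overlap on opposite strands over 7.63% of KRT8's and 16.3% of KRT18's exon bases. In SUM149, KRT5, a basal keratin, fell by 0.99 (SE 0.07) and KRT6B, an inducible keratin, rose by 1.35 (SE 0.08). The other keratins that rose there were KRT6A (0.32), KRT14 (1.11) and KRT17 (0.56). Without BT-549 MUC1shRNA 1, 3 of these genes were called in BT-549. Of 4 other plakins, DST, which anchors hemidesmosomes to keratin, fell by 0.45 (SE 0.08) in SUM149. In BT-549 its log2 fold change was -0.15 (SE 0.05, edgeR adjusted p = 0.0410), the only call among 3 tested. That call was lost without any 1 of the 6 libraries (edgeR adjusted p 0.0669 to 0.126), with DESeq2 (0.0821), in 1 fit of 12 libraries (0.102), without a filter (0.122), with thinning (0.0980) and without those 3 libraries (0.0506). In SUM149, 2 of 4 rose, MACF1, a linker of actin and microtubules, by 0.65 (SE 0.07) and PLEC, plectin, by 0.44 (SE 0.08).

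**Figure D4:**
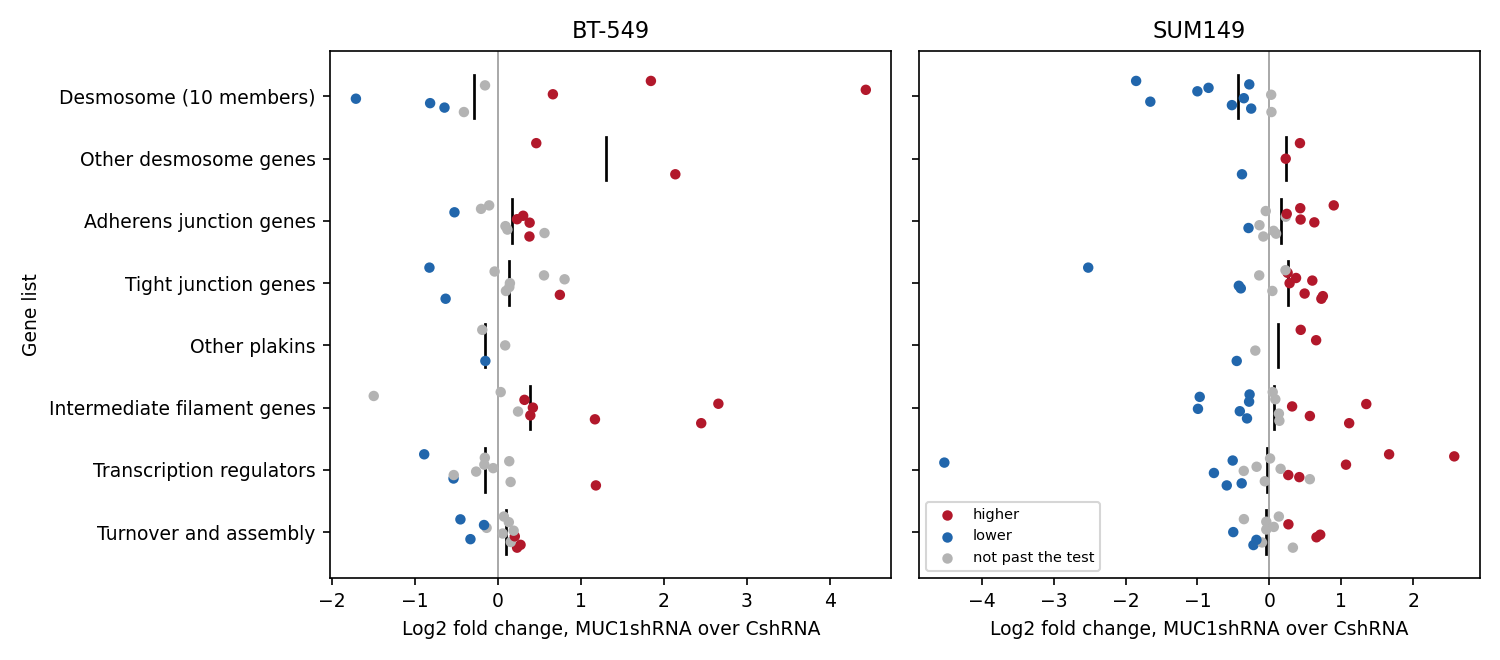
Log2 fold change of MUC1shRNA over CshRNA (horizontal axis) of every tested gene in 8 lists (vertical axis), in BT-549 and SUM149. Each point is a gene, coloured by its call, and the short line is the list's median, -0.28 over the 8 members tested in BT-549 and -0.44 over the 10 tested in SUM149.

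The other junctions of epithelial cells were counted next. Of 12 adherens junction genes, 4 of 10 tested rose and 1 fell in BT-549, and 5 of 12 rose and 1 fell in SUM149. CTNNA1, alpha-catenin, rose by 0.38 (SE 0.05) and CTNND1, p120-catenin, by 0.31 (SE 0.06) in BT-549, as did CTNNB1 (0.23) and AFDN, afadin (0.38). In SUM149 the actin linker VCL rose by 0.90 (SE 0.07) and CTNNB1, beta-catenin, by 0.63 (SE 0.06). CTNND1 (0.43), PLEKHA7 (0.43) and NECTIN2 (0.24) rose too, and CDH3, P-cadherin, was the gene that fell (-0.29). The gene that fell in BT-549 was NECTIN1, a nectin (-0.52). CDH1, E-cadherin, had 211 ± 6.52 CPM in SUM149 MUC1shRNA and 200 ± 26.7 in SUM149 CshRNA (SD, n = 3 each) and did not pass the test. Of 14 tight junction genes, 1 of 9 tested rose and 2 fell in BT-549, and 7 of 13 rose and 3 fell in SUM149. CLDN1, claudin-1, rose by 0.75 (SE 0.16) in BT-549 and 0.74 (SE 0.08) in SUM149. CGN, cingulin, was among the genes that fell in BT-549 (-0.63). TJP3, a scaffold protein, fell in SUM149 (-2.52, SE 0.28), as did CLDN7 (-0.40) and CRB3 (-0.42).

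Of 18 transcription regulators of epithelial and mesenchymal genes, 1 of 10 tested rose and 2 fell in BT-549, and 5 of 16 rose and 5 fell in SUM149. In BT-549, ELF3, an epithelial ETS factor, rose by 1.18 (SE 0.19), and ZEB2 (-0.89, SE 0.07) and KLF5 (-0.53, SE 0.13) fell. In SUM149, TP63, which maintains basal epithelium and drives several desmosome genes in skin, had 2.34 ± 0.118 CPM with MUC1shRNA and 54.2 ± 4.03 with CshRNA (SD, n = 3 each), which is a log2 change of -4.52 (SE 0.13, adjusted p = 5.65e-11 by edgeR). SNAI2 had 92.8 ± 5.27 CPM with MUC1shRNA and 44.8 ± 1.31 with CshRNA, a log2 change of 1.07 (SE 0.07). Among the others that rose there were ZEB1 (2.57), ZEB2 (1.66) and GRHL2, a grainyhead-like factor (0.42), and KLF5 (-0.77), ELF3 (-0.59), TWIST1 (-0.51) and the splicing regulator ESRP1 (-0.38) fell. ZEB1 had 20 counts with MUC1shRNA and 8 with CshRNA in SUM149. The part of these regulators in the members' changes was not tested. Of 13 genes of desmosome turnover and assembly, 3 of 12 tested rose and 3 fell in BT-549, and 3 of 13 rose and 3 fell in SUM149. The kinase gene SRC fell by 0.45 (SE 0.06) and the calcium pump gene ATP2A2 by 0.33 (SE 0.05) in BT-549, and in SUM149 EGFR rose by 0.71 (SE 0.06) and CDC42 by 0.66 (SE 0.07). The kinase gene PRKCA also fell in BT-549 (-0.17), and ADAM10 (0.23) and ADAM17 (0.27), proteases that shed cell surface proteins, and CDC42 (0.20) rose. In SUM149 RHOA rose (0.26), and FLOT1 (-0.50), ADAM17 (-0.22) and ATP2A2 (-0.18) fell. In BT-549, 2 of the turnover genes were called without MUC1shRNA 1 and 2 without MUC1shRNA 3, against 6 with all libraries. A neighbouring gene on the same strand covers 57.1% of CDC42's exon bases.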

How the data were processed

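Polyadenylated RNA of 12 cultures was sequenced with a stranded kit, per the labels' protocols. The authors deposited raw read counts, whole numbers per Ensembl gene and library, without normalization. Per the submitters' processing notes, the build was GRCh38.p7 and the tools included STAR 2.7.0, CASAVA 1.8.2 and DESeq2 1.24.0. Which tool counted the reads, with which annotation and strand setting, is not given in the sources used. Without the strand setting, reads of overlapping genes may not be told apart, and of the members only DSG2 shares exon bases with another gene (DSG2-AS1, opposite strand, 2.76% of its exon bases). Of 58037 identifiers, 57388 matched GENCODE 29, and DSC2 matched with another version number. Pseudoautosomal copies on chromosome Y (45 rows) were left out.

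The 6 libraries of a line were fitted together in edgeR 4.0.16 under R 4.3.3, with TMM scaling, filterByExpr and the quasi-likelihood test, and a gene was called at an adjusted p below 0.05 (Benjamini-Hochberg over all genes tested). Differences between lines and between responses came from 1 fit of 12 libraries. SE is the log2 fold change divided by the root of its F statistic, and 95% intervals are normal ones from it. They take no account of the few degrees of freedom, so they are too narrow. For the DSG2 difference of responses the interval, -0.56 to -0.0015, leaves out 0, while edgeR's unadjusted p was 0.0680. CPM were scaled over all 12 libraries. Intervals and floors (3 counts) from pooled counts cover counting error only. Replicates differed beyond sampling noise (chi-square per degree of freedom 1.85 to 14.5), so no library was a copy. The scripts were tested on simulated data.

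The members and lists were chosen with earlier results of these data known. Named were all members, MUC1, in each line the 2 genes of every other list with the smallest adjusted p, members of a list where its count was 5 or fewer, and the 5 genes most alike to the members. ZEB1 and SNAI2 in BT-549, SNAI1 in both lines, CDH1 in SUM149, the marker genes and the genes of single libraries were named after their values were seen. Some genes that the rule names are not reported here. Alternatives were RLE, upper-quartile and no scaling beyond totals, no filter, at least 5 CPM in 3 libraries, limma-voom (3.58.1), DESeq2 1.42.0, 1 fit of 12 libraries, a replicate block, thinning and leaving libraries out. The same alternatives for the other lists, and the length of the longest coding transcript for shares, were chosen after seeing the data.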

Additional observations from a re-analysis of the deposited data

Results flagged for a closer look

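For 4 of the 10 desmosome genes, the responses of the 2 lines differed by the test of the difference itself (edgeR). The difference is the log2 fold change in BT-549 minus that in SUM149. In either direction, 39.6% of the 15649 genes tested passed it, so the count is near the share of all genes. For PKP2 the difference was 5.29, with log2 fold changes of 4.44 in BT-549 and -0.85 in SUM149. The BT-549 value rests on 5 counts with CshRNA. PKP2 passed the filter in BT-549 only through the MUC1shRNA arm, so its call there supports nothing further. For PPL the difference was 3.72, with 1.85 in BT-549 and -1.85 in SUM149. For DSP it was -1.35, with -1.71 and -0.35. For JUP it was 0.65, with 0.66 and 0.03, and this difference passed the test in fewer of the fits that left out a library than the other 3 did.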

How the results depend on the processing

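Of the recomputed counts and shares, 260 stayed the same or within 1.5 times and 4 moved further. For the other lists 225 counts stayed and 13 moved, and 460 values of named genes kept their call, 12 lost it and 2 gained it. Of the members' recomputed log2 values, 880 kept their direction and their side of the threshold, 13 lost the call, 10 gained it and 13 reversed. Without 1 library, 2716 to 4470 genes were called in BT-549, the fewest without MUC1shRNA 1, against 4398 with all libraries. The number of members called in BT-549 was 1 with a filter of 5 CPM in 3 libraries, which left 3 members to test, and 3 when every library was thinned to 7931614 counts, where DSC3 (adjusted p = 0.142, edgeR) and JUP (0.192) no longer passed and PKP2 was filtered out, so depth limits these calls. The number of members whose responses differed between lines ran from 3 to 7 without 1 library. Members with a log2 fold change near 0 reversed. SUM149 DSC2 came to -0.029 with upper-quartile scaling, -0.015 with library totals, -0.0078 without a filter, -0.014 without the 3 libraries that stand apart (BT-549 MUC1shRNA 2, BT-549 CshRNA 3 and SUM149 CshRNA 3), and -0.060 to 0.10 without 1 library (-0.060 without MUC1shRNA 1, -0.014 without CshRNA 3). SUM149 JUP came to -0.033, -0.021 and -0.013 with the first 3 of these settings and -0.030 to 0.074 without 1 library (-0.030 without MUC1shRNA 2, -0.0040 without CshRNA 1, -0.0031 without CshRNA 2). The difference of responses of PKP3 came to -0.013 without the 3 libraries. BT-549 DSC2 also passed without a filter (adjusted p = 0.0396, edgeR) and without the 3 libraries (0.0262). The cause was not tested. The median of all genes in the line difference with CshRNA was -0.31 with library totals and -0.19 with upper-quartile scaling, against -0.07 with TMM. With library totals, the line difference with MUC1shRNA had a median of -0.26. Without a filter, the median in SUM149 was -0.20. Libraries of the same number did not deviate together (r from -0.32 to 0.13 in BT-549 and from -0.05 to 0.09 in SUM149). Between different numbers, r reached 0.41 in BT-549 and 0.15 in SUM149. With 3 libraries per arm, these r cannot settle whether the numbers pair libraries. With a replicate block, 2951 genes were called in BT-549, 7934 in SUM149 and 5634 for the difference of responses, and the members called were 6, 8 and 4, as without it. The block gave 12840 genes for the line difference with CshRNA and 12235 with MUC1shRNA, with 10 members called in each. With the block, 3 turnover genes were called in BT-549 (6 without it) and DST was not (adjusted p = 0.110, edgeR). Without the 3 libraries, 5 regulators were called in BT-549, against 3.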

Other observations

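Over the 12 libraries, the genes whose log2 CPM followed the mean scaled profile of the 10 members most closely were THNSL2 (Pearson r = 0.999), SH2D3A (0.999), TNS1 (0.999), LPL (0.999) and TFCP2L1 (0.999). Among the members, r with this mean, of which each is a part, ran from 0.928 for DSG2 to 0.999 for PKP1. The points fall into the 2 lines, whose libraries share a medium, so r describes mainly the gap between the lines. In SUM149 CshRNA 3, ELF5, an ETS factor of luminal progenitor cells, had 135 counts, against 0 in CshRNA 1 and 0 in CshRNA 2. CLDN3 had 72 counts there, against 3 and 2, and PGR 34, against 0 and 0. In BT-549 CshRNA 3, KRT81, a hair keratin, had 135 counts, against 7 to 28 in the other 5 BT-549 libraries.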
